A study of Mus musculus with 12 samples.

Results

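The Mettl7a genes of mouse chromosome 15 are 4 neighbouring entries, Mettl7a1, Mettl7a2, Mettl7a3 and AB099516, that lie 2.54 Mb from the Hoxc cluster on the same chromosome. They were chosen by symbol, from a list drawn up because Mettl7a2, Mettl7a3 and AB099516 were near 0 counts in wild type kidneys and well above that in Hox mutant kidneys, so the counts described here are the values that chose them and no test is given for them. They are 4 of 36186 entries of the count table, of which 20170 had at least 1 count in any library.

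RNA from whole kidneys of mouse embryos at E18.5 was sequenced in 12 libraries, 3 for each of 4 genotypes, to compare kidneys that had lost flanking Abd-B type Hox genes in different combinations. The wild type group (Wt) carried no mutant allele. AkCh kidneys were homozygous mutant (-/-) for Hoxa9, Hoxa10 and Hoxa11 and heterozygous (+/-) for the mutations of Hoxc9, Hoxc10 and Hoxc11. AhCk kidneys had the reverse, with Hoxa9, Hoxa10 and Hoxa11 +/- and Hoxc9, Hoxc10 and Hoxc11 -/-. AkCk kidneys were -/- for both sets by their labels. The text of the study, however, describes all sequenced kidneys of this kind as Hoxa11 +/- or +/+. Which library had which of these is not given in the sources used here. The study detected no kidneys at E18.5 in embryos that were -/- for both sets, so the Hoxa11 part of this label is in doubt. All animals, Wt included, were of mixed background by their labels, and the study names 129 and CD1 as the strains that were mixed, while the strain alleles that each library carried near Hoxc are not given in the sources used here. The Hoxc alleles carry small changes in first exons that shift the reading frame and were brought into mice through targeted embryonic stem cells, while the Hoxa alleles came from the same kind of targeting, in part in earlier work and in part, for an allele of Hoxa9 and Hoxa10 only, in this study. The labels number each library but name no litters, so the p-values given for other genes measure only the spread between these libraries, which may be technical in part.

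Total counts ran from 28.6 M in AkCh20 to 47.1 M in AhCk110, with a median of 39.3 M. Each library is named by its group and the number in its label. Levels are given as CPM, which are counts over the library size in units of M after TMM scaling, and on that scale a single count was worth 0.0205 to 0.0386 CPM. AkCh20 stood apart from the rest, with correlations of 0.940 to 0.976 with the other libraries over 16260 genes (log2 CPM), while the lowest correlation between any pair of the others was 0.970. The member ratios and the counts of called genes that rest on AkCh20 are therefore also given without it. By their labels the 3 AhCk libraries came from a run of their own and the remaining 9 shared another, so genotype and run cannot be told apart for AhCk. Counts of Xist exceeded those of the Y-linked Ddx3y in 5 libraries (AkCh31, AkCh33, AhCk110, AkCk27 and AkCk29) and the reverse held in the other 7, all Wt libraries among them.

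Mettl7a proteins are membrane-bound relatives of small-molecule methyltransferases that use S-adenosylmethionine, and they are found at the endoplasmic reticulum and on lipid droplets, the fat stores of the cell. The better studied relative Mettl7b methylates thiols and hydrogen sulfide, and genes of the family are known to be abundant in liver and fat. Hox genes of the Abd-B type encode transcription factors that pattern the posterior body and, in the kidney, act in the mesenchyme that induces the ureteric bud.

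In the RefSeq annotation of GRCm38.p6 all 4 genes lie on the + strand of chromosome 15 within 80.3 kb. Mettl7a1 (Entrez 70152) is at chr15:100304145-100330001 and Mettl7a3 (Entrez 668178) at chr15:100334806-100348386. Mettl7a2 (Entrez 393082) is at chr15:100353200-100361819. AB099516 (Entrez 554292), whose current symbol is Methig1, starts at the same base and runs on through the next gene, Higd1c, at chr15:100353200-100384435. The Hoxc genes lie at chr15:102921131-103036856.

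The genes are close copies, and how close decides what a count can tell. The first coding exon holds 498 bases in each. Mettl7a1 differs there from Mettl7a2 at 19 bases (96.2% identity) and from Mettl7a3 at 22 bases (95.6%). Mettl7a3 differs from Mettl7a2 at 7 bases (98.6%), and AB099516 has the same exon as Mettl7a2. In the second coding exon, of 234 bases, Mettl7a1 differs from both Mettl7a2 and Mettl7a3 at 20 bases (91.5%), while Mettl7a2 and Mettl7a3 are identical. The stretch of 75 bases below, coding positions 74 to 148, is as long as a read of the study and is shown because it separates Mettl7a1 from the other genes at 8 positions, which are in capitals, while it does not separate the others from each other. The sequences are from GENCODE M21 transcripts on GRCm38, + strand, at chr15:100304920-100304994 for Mettl7a1, chr15:100335003-100335077 for Mettl7a3 and chr15:100353283-100353357 for Mettl7a2 and AB099516, all within the first coding exon.
Mettl7a1: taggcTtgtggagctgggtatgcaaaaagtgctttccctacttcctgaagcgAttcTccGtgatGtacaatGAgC
Mettl7a3: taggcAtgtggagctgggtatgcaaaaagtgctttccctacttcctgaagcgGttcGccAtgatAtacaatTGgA
Mettl7a2 and AB099516: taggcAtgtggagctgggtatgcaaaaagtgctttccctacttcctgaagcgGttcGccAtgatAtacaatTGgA

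Over whole transcripts, the share of 75-base windows found without mismatch in a transcript of any other gene, Higd1c included, was 12.9% for Mettl7a1 (241 of 1872 windows), 36.7% for Mettl7a3 (579 of 1578), 58.5% for Mettl7a2 (1009 of 1726) and 58.2% for AB099516 (831 of 1427). A read from such a window has more than 1 possible origin. The authors removed reads that aligned to more than 1 position, a step that takes away reads between copies at different places but not those in the exon that Mettl7a2 and AB099516 share at the same place. These genes share 508 exon bases, which are 28.2% of the exon bases of Mettl7a2 and 33.8% of those of AB099516. A further 470 bases of AB099516 are also exon of Higd1c, and 523 bases (34.8%) belong to AB099516 alone. How reads in shared exons were divided, and whether the counting used strand, is not given in the sources used here. The counts of Mettl7a2, Mettl7a3 and AB099516 are therefore uncertain as to which of these genes each read came from.

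The sequences upstream of the start sites are shown because Mettl7a2 and AB099516 differed from Mettl7a1 in level and begin at another start site. They are from RefSeq on GRCm38.p6, + strand, and are the part of the 250 bases before the start site that holds no annotated exon. The stretch of Mettl7a1 spans chr15:100304567-100304760 (194 bases) and lies inside the annotated span of the gene, which has a further start upstream. The stretch of Mettl7a2 and AB099516, which have the same start, spans chr15:100352950-100353148 (199 bases). Capitals mark matches, on either strand, to CCAAT, which reads ATTGG when reversed. They also mark the TATAAA match. A further motif, searched in the same way, is TTTAT, and its match on the reverse strand lies within that of the previous motif.
Mettl7a1 upstream: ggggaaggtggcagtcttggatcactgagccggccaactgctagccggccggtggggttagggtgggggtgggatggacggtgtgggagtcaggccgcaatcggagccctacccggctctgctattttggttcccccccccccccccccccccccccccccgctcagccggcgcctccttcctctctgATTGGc
Mettl7a2 and AB099516 upstream: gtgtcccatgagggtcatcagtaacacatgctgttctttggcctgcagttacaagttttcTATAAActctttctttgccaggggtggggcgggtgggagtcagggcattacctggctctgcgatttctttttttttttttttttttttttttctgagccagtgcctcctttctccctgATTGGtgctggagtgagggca

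Of the 250 bases before each start site, 222 could be aligned between Mettl7a1 and Mettl7a2, and 136 of these were identical (61.3%). The longest run of a single base was 29 C in Mettl7a1 and 25 T in Mettl7a2. Mettl7a1 had 12 CG dinucleotides in its 250 bases and Mettl7a2 had 2, against a median of 6 over 32817 mouse promoters of the same length. A CCAAT match was present in both, at 62 bases before the start in Mettl7a1 and 72 in Mettl7a2, as it was in 33.8% of all promoters. Mettl7a2 also had 1 TATAAA match, at 190 bases before the start, and such a match was found in 12.4% of promoters. With it came 1 TTTAT match, found in 37.3%, whereas Mettl7a1 had neither motif. A match is a string of letters and no binding was measured. Mettl7a3 was not compared.

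Mettl7a1 was the abundant member and was read in every library. It had 35.6, 30.3 and 29 CPM in Wt30, Wt37 and Wt55, and 31, 36.8 and 43.1 CPM in AkCh20, AkCh31 and AkCh33. It had 48.4, 37.2 and 31.5 CPM in AhCk38, AhCk110 and AhCk115, and 45.5, 61.2 and 33.1 CPM in AkCk24, AkCk27 and AkCk29. The highest library was AkCk27, and each mutant group held at least 1 library within the Wt range, so that the groups overlapped. The means were 31.6 ± 3.54 CPM in Wt, 37 ± 6.08 in AkCh, 39.0 ± 8.60 in AhCk and 46.6 ± 14.1 in AkCk (SD, n = 3 each). Over pooled counts this was 1.20 times the Wt level in AkCh, 1.21 times in AhCk and 1.49 times in AkCk, and the log2 ratio of AkCh was 0.26, or 0.34 without AkCh20.

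Mettl7a2 was close to absent from Wt, with 1 count in each of the 3 libraries. It had 32, 131 and 138 counts in AkCh20, AkCh31 and AkCh33, and 328, 295 and 229 counts in AhCk38, AhCk110 and AhCk115. It had 480, 783 and 108 counts in AkCk24, AkCk27 and AkCk29. All 9 mutant libraries lay above all 3 Wt libraries, and AkCk29 lay with the AkCh libraries, far under the other AkCk libraries. In CPM, the means were 0.0248 ± 0.00173 in Wt, 2.68 ± 1.27 in AkCh, 6.81 ± 2.53 in AhCk and 11.8 ± 8.51 in AkCk (SD, n = 3 each). The AkCh libraries, of 1.24 to 3.64 CPM, did not overlap the AhCk libraries, of 4.75 to 9.63 CPM, although these groups also differ in run. AkCk, of 2.97 to 19.9 CPM, overlapped both, and its highest library was 6.72 times its lowest. In bulk RNA a lower level from fewer cells of a type and from less RNA per cell cannot be told apart.

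The ratio of Mettl7a2 to Wt, over pooled counts, was 116 in AkCh with a counting interval of 39.2 to 565 (exact, 95%), because Wt held only 3 counts in all. The ratio was 263 in AhCk (89.7 to 1278) and 487 in AkCk (166 to 2366). All intervals given for the members, and the floors used for groups at 0, cover counting error of the pooled counts only. They leave out the spread between the libraries of a group and are no test of a difference between groups. The reads also carry no molecular identifiers. On the log2 scale the AkCh ratio was 6.86, and 7.10 without AkCh20. The AkCk ratio was 8.93, and 8.32 without AkCk27, the library with the most Mettl7a2 counts. Between mutant groups, AkCk had 4.21 times the level of AkCh (3.71 to 4.78) and 1.85 times that of AhCk (1.70 to 2.02). Those last values rest on AkCk27 as well: without it the log2 ratios fell from 2.07 to 1.46 against AkCh and from 0.89 to 0.28 against AhCk. Without AkCh20 the ratio against AkCh was 1.83.

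AB099516, annotated as reading through from the Mettl7a2 start into Higd1c, followed Mettl7a2 closely in its counts, which may in part be the same reads. It had 1, 3 and 1 counts in Wt30, Wt37 and Wt55, and 36, 130 and 138 counts in AkCh20, AkCh31 and AkCh33. It had 317, 300 and 224 counts in AhCk38, AhCk110 and AhCk115, and 469, 766 and 107 counts in AkCk24, AkCk27 and AkCk29. The order of the mutant libraries was that of Mettl7a2, with AkCk27 highest, AkCh20 lowest and no overlap with Wt. The means were 0.0401 ± 0.0252 CPM in Wt, 2.72 ± 1.18 in AkCh, 6.70 ± 2.38 in AhCk and 11.6 ± 8.31 in AkCk (SD, n = 3 each). Its ratio to Wt was 70.2 in AkCh (29.7 to 218), 156 in AhCk (66.5 to 481) and 286 in AkCk (122 to 883). The log2 ratios of 6.13, 7.28 and 8.16 became 6.82, 7.97 and 8.85 without Wt37, which held 3 of the 5 Wt counts, and the AkCk value became 7.55 without AkCk27. The AkCh value became 6.36 without AkCh20.

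In the 9 mutant libraries AB099516 had 96.5% to 114% of the unrounded Mettl7a2 count, with a median of 99.2%. These entries share 508 exon bases, and Higd1c, with 470 of its exon bases inside AB099516, had 0 counts in all 12 libraries. Whether any AB099516 count came from outside the shared exon cannot be told from counts per gene. Across all 12 libraries the Pearson correlation of log2 CPM between Mettl7a2 and AB099516 was 1.00 (Spearman 0.979), and it was also 1.00 in the 9 mutant libraries, which share reads from the same exon. The part that division of shared reads has in this likeness was not tested.

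Mettl7a3, which lies between Mettl7a1 and Mettl7a2, had the fewest counts. It had 0 counts in each Wt library and 6, 19 and 7 counts in AkCh20, AkCh31 and AkCh33. It had 34, 46 and 22 counts in AhCk38, AhCk110 and AhCk115, and 57, 54 and 16 counts in AkCk24, AkCk27 and AkCk29. Every mutant library again lay above Wt, and AkCk29 was the lowest of its group here too. The means were 0.292 ± 0.146 CPM in AkCh, 0.799 ± 0.298 in AhCk and 1.10 ± 0.576 in AkCk (SD, n = 3 each), and AkCh31 at 0.458 CPM just overlapped AhCk115 at 0.456 CPM. Against a floor of 3 counts over the Wt group, the level was at least 12.3-fold higher in AkCh, at least 31.5-fold higher in AhCk and at least 45.1-fold higher in AkCk. On the log2 scale these bounds were 3.62, 4.98 and 5.50, and they fell to 2.98, 4.34 and 4.86 without Wt37, since the floor then rests on less depth. The bound of AkCh was 3.73 without AkCh20. Over the 9 mutant libraries Mettl7a3 had 5.09% to 20.2% of the Mettl7a2 count, with a median of 11.8%. AkCk had 3.67 times the level of AkCh (2.47 to 5.59) and 1.43 times that of AhCk (1.10 to 1.88), with overlapping libraries in both cases, and the log2 ratio against AkCh was 1.77 without AkCh20.

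**Figure D1:**
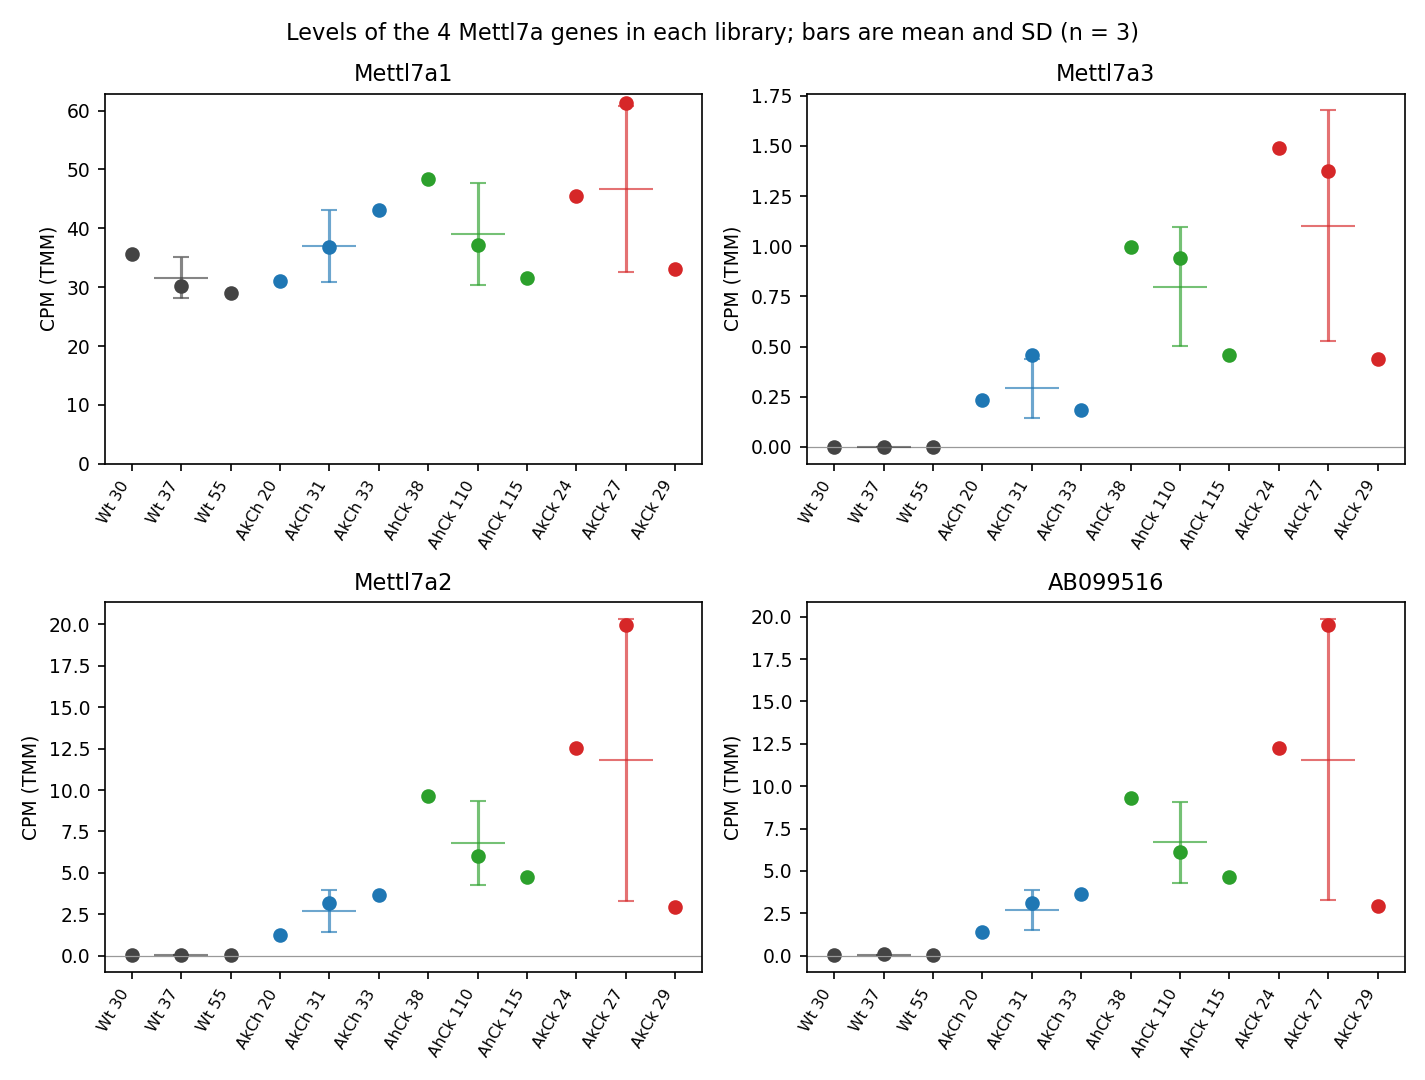
CPM after TMM scaling of Mettl7a1, Mettl7a3, Mettl7a2 and AB099516 in each of the 12 libraries (points), with the mean and SD of each group of 3 (bars) and an axis of its own for each gene. Mettl7a1 overlaps between all groups at 29 to 61.2 CPM, while the other genes are at or near 0 in Wt and AkCk29 lies low among the AkCk libraries.

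Because the genes differ in length, they were set against each other per kb of exon (2595 bases for Mettl7a1, 1652 for Mettl7a3, 1804 for Mettl7a2 and 1501 for AB099516). On that scale Mettl7a2 stood at 0.113 ± 0.00848% of the Mettl7a1 level of the same library in Wt, 10.1 ± 3.75% in AkCh, 24.6 ± 3.62% in AhCk and 33.1 ± 17.9% in AkCk (SD, n = 3 each). AB099516 stood at 0.224 ± 0.149%, 12.4 ± 3.98%, 29.1 ± 3.90% and 39.0 ± 20.9% in the same order of groups. Mettl7a3 stood at 0% in Wt, 1.27 ± 0.646% in AkCh, 3.16 ± 0.853% in AhCk and 3.58 ± 1.53% in AkCk. Mettl7a1 thus kept the highest level per kb of the 4 members in all 12 libraries. By their means the groups rose from Wt through AkCh and AhCk to AkCk for these 3 genes. By label they have 0 mutant Hoxc alleles in Wt, 1 in AkCh and 2 in both AhCk and AkCk. These levels rest on the counts that chose the members, and run and genotype cannot be told apart for AhCk. A relation to the number of alleles was not tested, and neither was one to the strain alleles near Hoxc, which are not given. AkCk29, at 12.9% for Mettl7a2, lay just above AkCh31 at 12.3% and AkCh33 at 12.1%, and below every AhCk library.

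**Figure D2:**
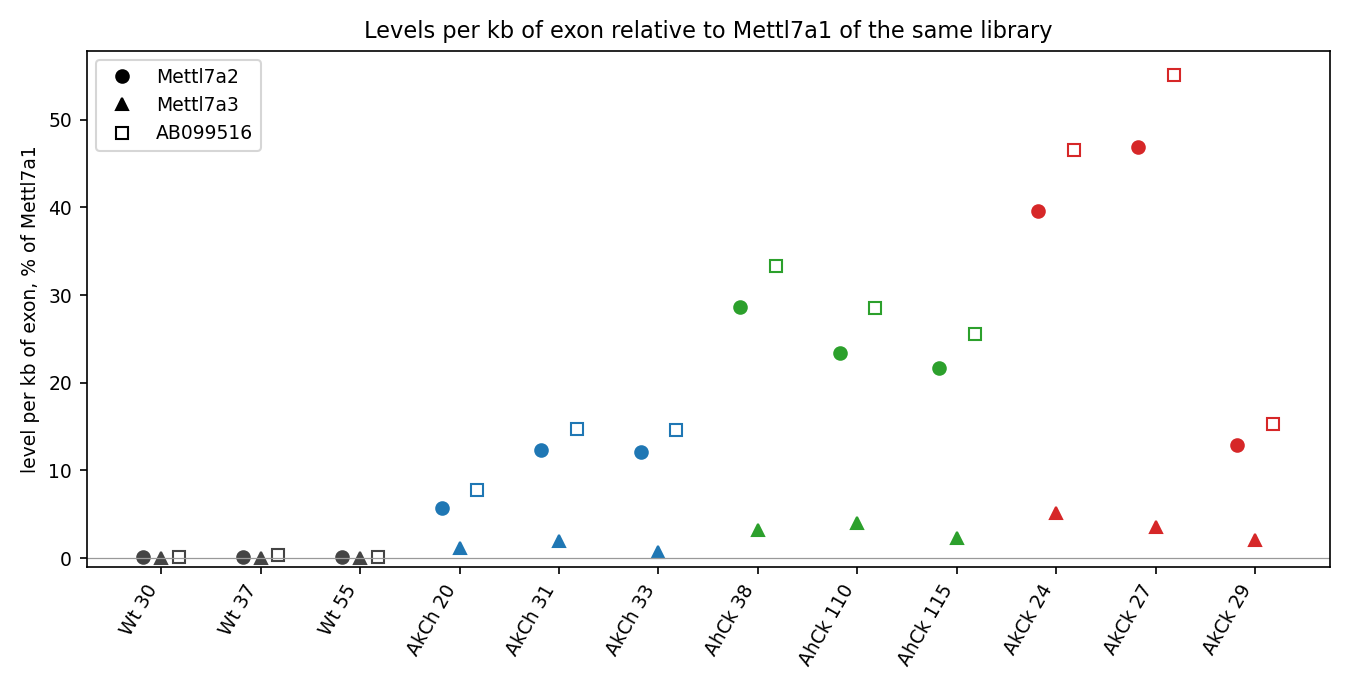
Level per kb of exon of Mettl7a2 (circles), Mettl7a3 (triangles) and AB099516 (open squares) as a percent of the Mettl7a1 level per kb in the same library, for the 12 libraries. Wt lies at or near 0, AkCh at 5.74% to 12.3% for Mettl7a2, AhCk at 21.7% to 28.6%, and AkCk spreads from 12.9% to 46.9%.

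Over the 9 mutant libraries, Mettl7a2 and Mettl7a1 had a Pearson correlation of 0.857 in log2 CPM (Spearman 0.850, n = 9), which was 0.675 without the 2 libraries farthest from the median. Mettl7a2 and Mettl7a3 had 0.902 in the same libraries (Spearman 0.850, n = 9). With Wt included the values were 0.782 for Mettl7a1 and 0.948 for Mettl7a3 (n = 12), and there they set Wt against the mutants. These are descriptions of libraries that share genotype and, in part, reads.

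Because the members were selected on these counts, the following counts describe the choice and are no finding. With thresholds set after the values were seen, at most 3 counts in each Wt library and at least 15 in each AhCk and AkCk library, it was met by 3 of 20170 entries with counts (0.0149%), and these were Mettl7a2, Mettl7a3 and AB099516 themselves. At most 3 counts in each Wt library and more than 3 in each of the 9 mutant libraries was met by 5 entries, the others being Lhx2 and Ms4a4d. The reverse, at least 15 counts in each Wt library and at most 3 in each mutant library, was met by 0 entries.

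The members that were free of overlap with Wt were Mettl7a2, Mettl7a3 and AB099516 in each of the 3 comparisons with Wt, which all use the same Wt libraries. Among all genes tested, every library of the mutant group was higher than every Wt library for 3.58% in AkCh (565 of 15789), 11.4% in AhCk (1812 of 15902) and 17.3% in AkCk (2737 of 15839). After the filter on low counts, 3 of the 4 members were kept in the comparison of AkCh with Wt, Mettl7a3 being left out, and 4 of 4 in the other comparisons. Except for Mettl7a1 they were kept only through the mutant libraries, so no count over them is used.

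Genes around the members on chromosome 15 were not used in choosing them and could be tested. The window ran from 3 Mb before the members through Hoxc to the end of chromosome 15, which lies less than 3 Mb after Hoxc, and held 213 genes of the table without the members and Hoxc9, Hoxc10 and Hoxc11. Each group was compared with Wt, and AkCk with the other mutant groups, with the quasi-likelihood test of edgeR. The p-values were adjusted for all genes of a comparison after Benjamini and Hochberg, and 0.05 was the threshold.

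In AkCh kidneys, with 1 mutant Hoxc allele, Tuba1c, an alpha-tubulin gene before the members, was higher than in Wt in 3 of 3 libraries, and no window gene passed the threshold by edgeR. Tuba1c had 89.1, 73.6 and 70.6 CPM in AkCh20, AkCh31 and AkCh33 against 49.8 to 52.3 CPM in Wt, without overlap. Of 132 window genes tested in AkCh against Wt, 0 passed the threshold by edgeR, 2 had an unadjusted p under 0.05, and DESeq2 called 1. Among all genes it was 0 of 15789 (0%), with 360 at an unadjusted p under 0.05 and 22 by DESeq2. Without AkCh20 the window count was also 0. The gene called by DESeq2 was Tuba1c, with an adjusted p of 0.0193 in DESeq2 against 1.00 in edgeR. Its log2 fold change was 0.60 ± 0.118 (SE) in the edgeR fit.

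In AhCk kidneys, with 2 mutant Hoxc alleles, Tuba1c, an alpha-tubulin gene 1.27 Mb before the members, rose and Rpap3, a co-chaperone gene on the same side, fell. Tuba1c had 49.8, 52.3 and 52.3 CPM in Wt30, Wt37 and Wt55, 84.7, 103 and 91.2 CPM in AhCk38, AhCk110 and AhCk115, and rose by 0.86 ± 0.0848 on the log2 scale (SE, adjusted p = 0.00444 by edgeR, higher in 3 of 3 libraries). The call held with each of the 6 libraries left out, at adjusted p of up to 0.0431. Rpap3 had 40.5 ± 0.755 CPM in Wt and 25.7 ± 2.23 CPM in AhCk and fell by 0.64 on the log2 scale (SE 0.0846, adjusted p = 0.0159 by edgeR), a call lost without Wt37, Wt55 or AhCk115, at adjusted p of up to 0.108, and with all 12 libraries in 1 edgeR fit (adjusted p = 0.0760). In all, 6 of 133 window genes were called, 4 higher and 2 lower, which is 4.51% against 2.36% of all genes tested (376 of 15902, 133 higher and 243 lower). DESeq2 called 20 of the window genes and 1309 of all genes. The count of 6 became 1 without Wt37, 1 without Wt55, 1 without AhCk115 and 2 without AhCk110, so it rests on single libraries, and run cannot be told apart from genotype here.

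In AkCk kidneys 15.2% of the tested window genes were called, close to the 13.7% of all genes tested. Tuba1c rose again, by 0.88 ± 0.113 on the log2 scale (adjusted p = 0.00506 by edgeR), with 109, 95.3 and 79.7 CPM in AkCk24, AkCk27 and AkCk29. Slc11a2, the ferrous iron transporter gene 3.46 kb after the last member and its closest neighbour on that side, had 58.1, 42.1 and 39.5 CPM in Wt30, Wt37 and Wt55 and 91.7, 105 and 71.4 CPM in AkCk24, AkCk27 and AkCk29. It rose by 0.94 ± 0.182 on the log2 scale (adjusted p = 0.0187 by edgeR), although the call was lost without Wt37, Wt55, AkCk24 or AkCk27, at adjusted p of up to 0.0744, and in the edgeR fits to all 12 libraries without and with Xist (adjusted p = 0.113 and 0.257). In AhCk against Wt its log2 fold change of 0.83 did not pass (adjusted p = 0.105 by edgeR, 0.00435 by DESeq2). Acvrl1, an endothelial TGF-beta family receptor gene 0.744 Mb after the members, rose by 0.57 ± 0.0927 (adjusted p = 0.0101 by edgeR).

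Genes that fell in AkCk lay on both sides of the members as well. Scn8a, a voltage-gated sodium channel gene 0.485 Mb after them, fell by 1.41 on the log2 scale (SE 0.216, adjusted p = 0.00838 by edgeR), from 12.5 ± 1.49 to 4.70 ± 1.30 CPM. Prpf40b, a splicing factor gene, fell by 0.76 on the log2 scale (SE 0.105, adjusted p = 0.00636 by edgeR). The calls of Tuba1c, Acvrl1, Scn8a and Prpf40b held with each of the 6 libraries left out. Rpap3 fell by 0.73 on the log2 scale (SE 0.142, adjusted p = 0.0189 by edgeR), a call lost without Wt37, Wt55 or AkCk24, at adjusted p of up to 0.0764.

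Together 20 of 132 window genes were called in AkCk against Wt, 10 higher and 10 lower, beside 2171 of 15839 among all genes tested (999 higher and 1172 lower). By position, 11 of 60 tested genes were called before the members, 5 of 56 from the members to Hoxc, 3 of 5 in the Hoxc cluster and 1 of 11 after it. DESeq2 called 34 of the window genes and 3380 of all genes. The count became 5 without Wt37, 7 without Wt55, 5 without AkCk24 and 10 without AkCk27.

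**Figure D3:**
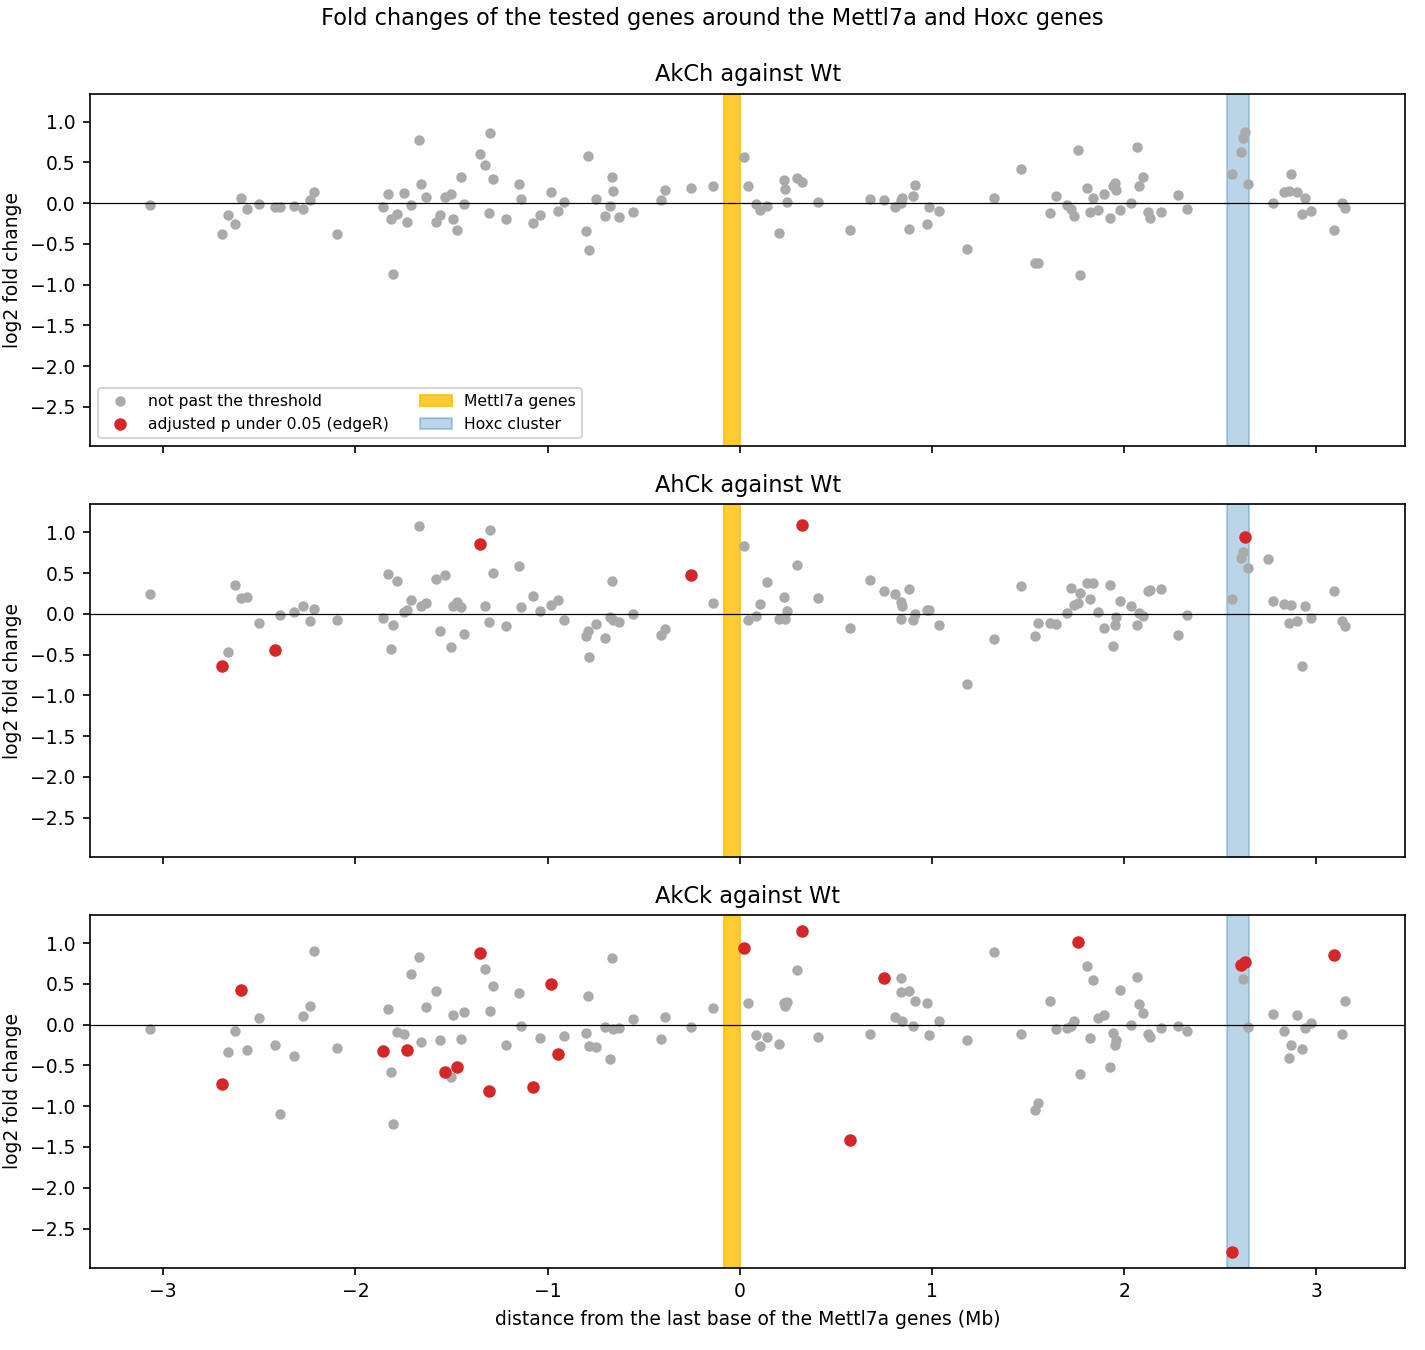
Log2 fold change (edgeR) of each tested gene of the window against its distance in Mb from the last base of the Mettl7a genes, in AkCh, AhCk and AkCk against Wt, with genes past an adjusted p of 0.05 in red. Calls number 0, 6 and 20, lie on both sides of the Mettl7a genes (yellow) and go in both directions, and the lowest point, in the Hoxc cluster (blue) of AkCk, is Hotair.

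Of the genes next to the members, Tmprss12, the nearest before them at 11.1 kb, had 19 counts over all 12 libraries and was not tested. Atf1, a transcription factor gene at 42.9 kb, had 48.2 ± 3.01 CPM in Wt and 55.8 ± 2.11 CPM in AkCk and passed the threshold in none of the 5 comparisons by edgeR. Dip2b, at 84.7 kb, rose in AhCk against Wt by 0.48 ± 0.0880 on the log2 scale (adjusted p = 0.0429 by edgeR), a call that was lost with any library but AhCk38 left out, at adjusted p of up to 0.216. Dip2b fell in AkCk against AhCk by 0.52 on the log2 scale (SE 0.0832, adjusted p = 0.00739 by edgeR), a call lost without AhCk110 (adjusted p = 0.0506). Larp4 and 2310068J16Rik before the members, and Gm5475 and Letmd1 after them, were called in none of the 5 comparisons by edgeR. Csrnp2 and Tfcp2, 95.1 and 113 kb after them, were called by edgeR in AkCk against AhCk alone, while DESeq2 called Tfcp2 in AhCk against Wt as well (adjusted p = 0.0128) and Larp4 in AkCk against AhCk (adjusted p = 0.0458). None of these neighbours was near 0 in Wt and far above it in mutants as Mettl7a2 was.

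**Figure D4:**
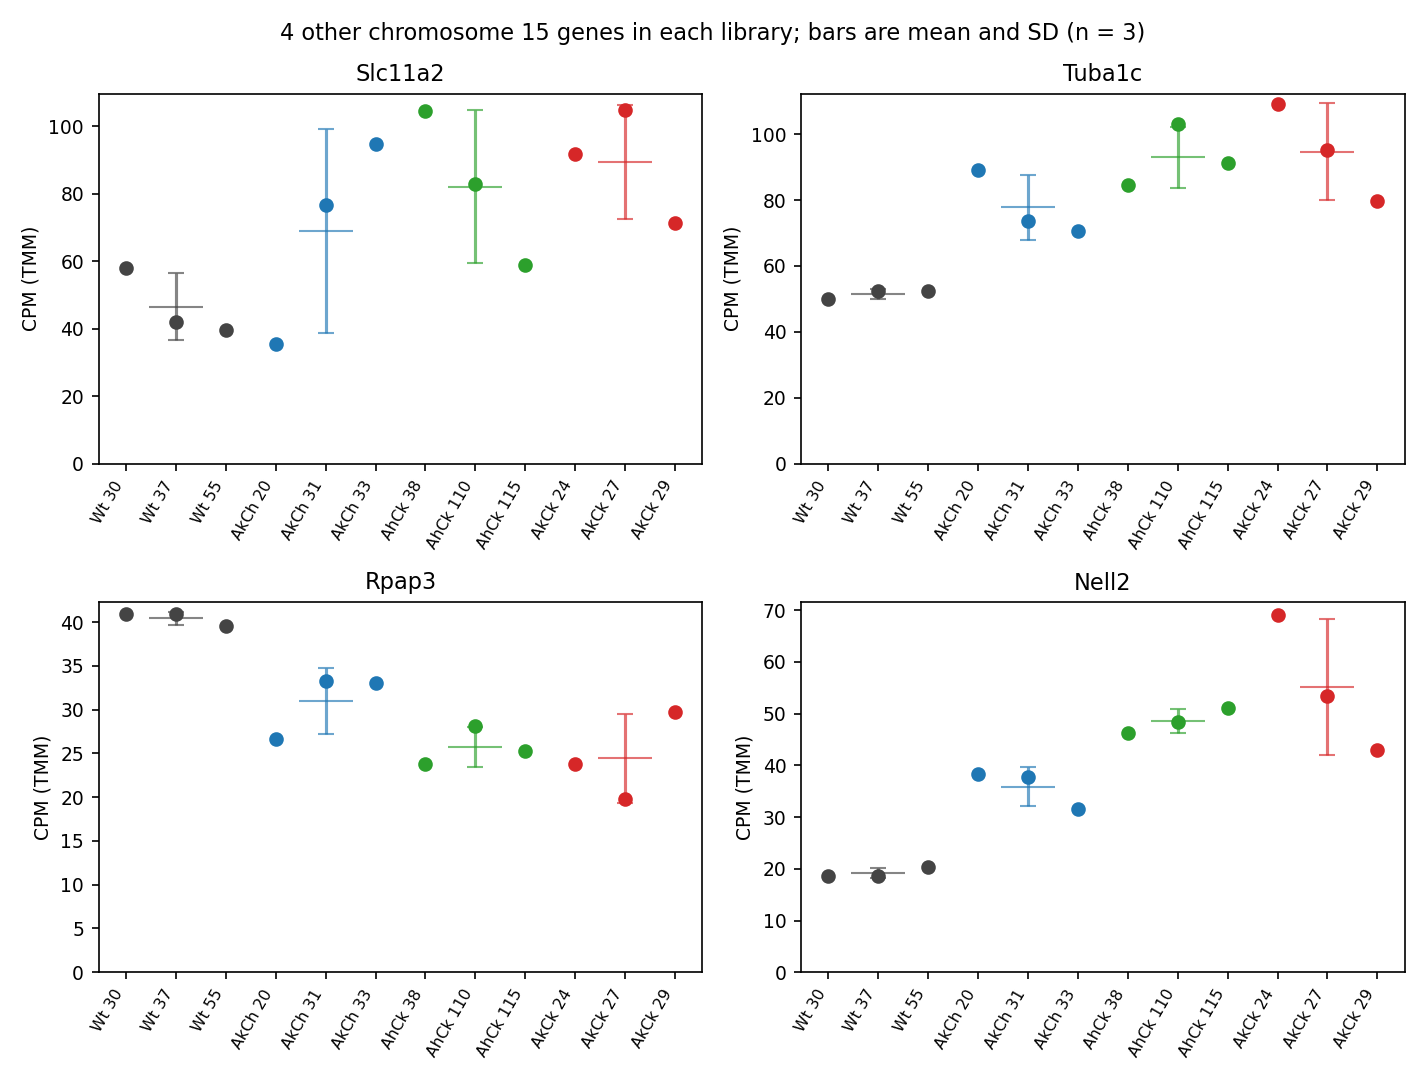
CPM after TMM scaling of Slc11a2, Tuba1c, Rpap3 and Nell2, all on chromosome 15, in each of the 12 libraries (points), with the mean and SD of each group of 3 (bars). Wt lies at 49.8 to 52.3 CPM for Tuba1c with every mutant library above it, while Slc11a2 overlaps between Wt and AkCh because AkCh20 lies at 35.6 CPM.

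Between mutant groups, AkCk and AkCh had the same Hoxa label and by label differed in 1 Hoxc allele. By the text of the study, which gives AkCk as Hoxa11 +/- or +/+, they differed in Hoxa11 as well. Of 129 window genes tested in AkCk against AkCh, 0 were called by edgeR, 11 had an unadjusted p under 0.05 and DESeq2 called 6. Among all genes 0 of 15764 (0%) were called, with 1787 at an unadjusted p under 0.05 and 554 by DESeq2. Without AkCh20 the window count was 4, 3 higher and 1 lower.

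AkCk and AhCk had the same Hoxc label and differed in Hoxa and in run. Here Kmt2d, a histone H3 lysine methyltransferase gene, fell by 1.07 on the log2 scale (SE 0.152, adjusted p = 0.00497 by edgeR) and Prpf40b fell by 1.00 (SE 0.0940, adjusted p = 0.00132 by edgeR). Hdac7, a histone deacetylase gene, fell by 0.52 on the log2 scale (SE 0.0718, adjusted p = 0.00448 by edgeR) and Tfcp2, a transcription factor gene, fell by 0.55 (SE 0.0912, adjusted p = 0.00828 by edgeR). All of these calls held with each of the 6 libraries left out, and that of Tfcp2 was lost with all 12 libraries in 1 edgeR fit (adjusted p = 0.0615). In all, 27 of 133 window genes were called, 6 higher and 21 lower, or 20.3% against 19.1% of all genes (3027 of 15889, 1213 higher and 1814 lower). The count became 5 without AhCk110, 12 without AhCk115, 10 without AkCk24 and 14 without AkCk27.

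The mutated genes themselves were read in all libraries. Hoxc10 fell in AkCk against Wt by 0.78 on the log2 scale (SE 0.135, adjusted p = 0.0127 by edgeR), from 58.6 ± 8.34 to 34.2 ± 4.57 CPM, a call lost without Wt37 (adjusted p = 0.0583), with all 12 libraries in 1 edgeR fit (adjusted p = 0.226) and in that fit with Xist as a covariate (adjusted p = 0.532). Hoxa10 fell by 0.49 on the log2 scale (SE 0.107, adjusted p = 0.0270 by edgeR), a call lost without Wt37, Wt55, AkCk24 or AkCk27, at adjusted p of up to 0.108, and also lost in these fits (edgeR adjusted p = 0.0790 and 0.206). In AhCk against Wt the log2 fold change of Hoxa10, -0.41, did not pass by edgeR (adjusted p = 0.0957) but was called by DESeq2 (adjusted p = 0.0160). Hoxc9 had 12.9 ± 2.35 CPM in Wt and 10.7 ± 0.346 CPM in AkCk, Hoxc11 had 1.66 ± 0.147 and 1.06 ± 0.173 CPM, and Hoxa11 had 52.2 ± 7.76 and 42.7 ± 8.81 CPM, with no call for them in any comparison. Hoxa9 was called by edgeR in AkCk against AhCk alone (DESeq2 also called it higher in AhCk against Wt, adjusted p = 0.0247), lower by -0.30 ± 0.0789 on the log2 scale (adjusted p = 0.0365 by edgeR), with an adjusted p of up to 0.173 when a library was left out and of 0.265 and 0.267 in these fits by edgeR. Because the alleles shift the reading frame and leave most of each gene in place, counts over whole genes do not check the genotype labels.

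Within the Hoxc cluster, Hoxc8 rose in AkCk against Wt by 0.73 ± 0.160 on the log2 scale (adjusted p = 0.0270 by edgeR), lost without Wt37, AkCk24, AkCk27 or AkCk29 at adjusted p of up to 0.103 and in the edgeR fits to all 12 libraries without and with Xist (adjusted p = 0.250 and 0.0722). In AhCk against Wt the log2 fold change of Hoxc8, 0.69, did not pass by edgeR (adjusted p = 0.0935) but was called by DESeq2 (adjusted p = 0.00855). Hoxc5 rose in AhCk by 0.95 ± 0.166 (adjusted p = 0.0376 by edgeR) and in AkCk by 0.77 ± 0.205 (adjusted p = 0.0457 by edgeR). The call of Hoxc5 in AhCk held only without AhCk38, with an adjusted p of up to 0.161, and that in AkCk was lost with any of the 6 libraries left out, with an adjusted p of up to 0.137, and the fits to all 12 libraries held neither. Hoxc4 and Hoxc6 were not called in any comparison by edgeR, while DESeq2 called Hoxc6 in AhCk and AkCk against Wt (adjusted p = 0.0128 and 0.0188 by DESeq2) and Hoxc4 in AhCk against Wt and AkCk against AhCk (adjusted p = 0.0463 and 0.0173 by DESeq2). Hoxc12 had 0 counts and Hoxc13 had 9 over all 12 libraries. Hotair, an antisense noncoding RNA gene between Hoxc11 and Hoxc12, was named after its values were seen. The filter on low counts removed it from AkCk against AkCh, and no result with a library left out is given for it. Its log2 fold change was -2.79 ± 0.681 in AkCk against Wt (adjusted p = 0.0361 by edgeR) and -2.97 ± 0.694 in AkCk against AhCk (adjusted p = 0.0253 by edgeR). It was not called by edgeR in AhCk against Wt (0.18, adjusted p = 0.800) or in AkCh against Wt (0.36). Because the strand of counting is not given, which strand its reads came from is uncertain.

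The genes most like the members in their pattern over the 12 libraries were sought among 16256 genes by the Pearson correlation of log2 CPM, and are described by their levels only because the likeness chose them. For Mettl7a1 they were Tlcd1 (0.945), B4galt5 (0.939), Selenbp1 (0.923), Ldhb (0.921) and Pkp2 (0.918), none of them on chromosome 15. Ldhb, a lactate dehydrogenase subunit gene, went from 715 ± 57.5 CPM in Wt to 824 ± 123 CPM in AkCk. B4galt5 went from 54.1 ± 6.53 CPM in Wt to 83.4 ± 13.4 CPM in AkCk, without overlap, whereas the libraries of Ldhb overlapped.

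For the summed counts of Mettl7a2, Mettl7a3 and AB099516, the 5 most alike were Mafa (0.953), Nell2 (0.943), Gm6682 (0.943), Slc7a11 (0.933) and Vipr2 (0.915). The sum was 0.0530, 0.0922 and 0.0495 CPM in Wt30, Wt37 and Wt55, 2.86, 6.75 and 7.47 CPM in AkCh20, AkCh31 and AkCh33, 19.9, 13.1 and 9.85 CPM in AhCk38, AhCk110 and AhCk115, and 26.3, 40.8 and 6.35 CPM in AkCk24, AkCk27 and AkCk29. Mafa, a transcription factor gene best known from pancreatic beta cells, and Nell2, which encodes a secreted glycoprotein, are both on chromosome 15, at 24.6 and 4.78 Mb before the members. Nell2 had 18.7, 18.6 and 20.3 CPM in Wt30, Wt37 and Wt55, 38.4, 37.8 and 31.5 CPM in AkCh20, AkCh31 and AkCh33, 46.3, 48.4 and 51.0 CPM in AhCk38, AhCk110 and AhCk115, and 69.1, 53.4 and 43.0 CPM in AkCk24, AkCk27 and AkCk29. All mutant libraries of Nell2 lay above Wt, and all AhCk and AkCk libraries above AkCh. Mafa lay far lower, at 0.212 to 0.272 CPM in Wt and 0.467 to 1.17 CPM in the mutants.

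Among the 100 genes most like the sum, a number taken after the values were seen, 17 were on chromosome 15, which held 650 of the 16256 genes compared. This was 2.62% of the compared genes of chromosome 15, and the next chromosome by share was chromosome 6, with 11 genes and 1.35%. Chromosomes 16 and 18 had 0. Of the 17, 4 lay in the window around the members (Tuba1c, Slc11a2, Galnt6 and Acvrl1), and the most distant was C1qtnf3, 89.3 Mb before them. The likeness mostly sets Wt against mutants, and the part of chromosome position in it was not tested.

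**Figure D5:**
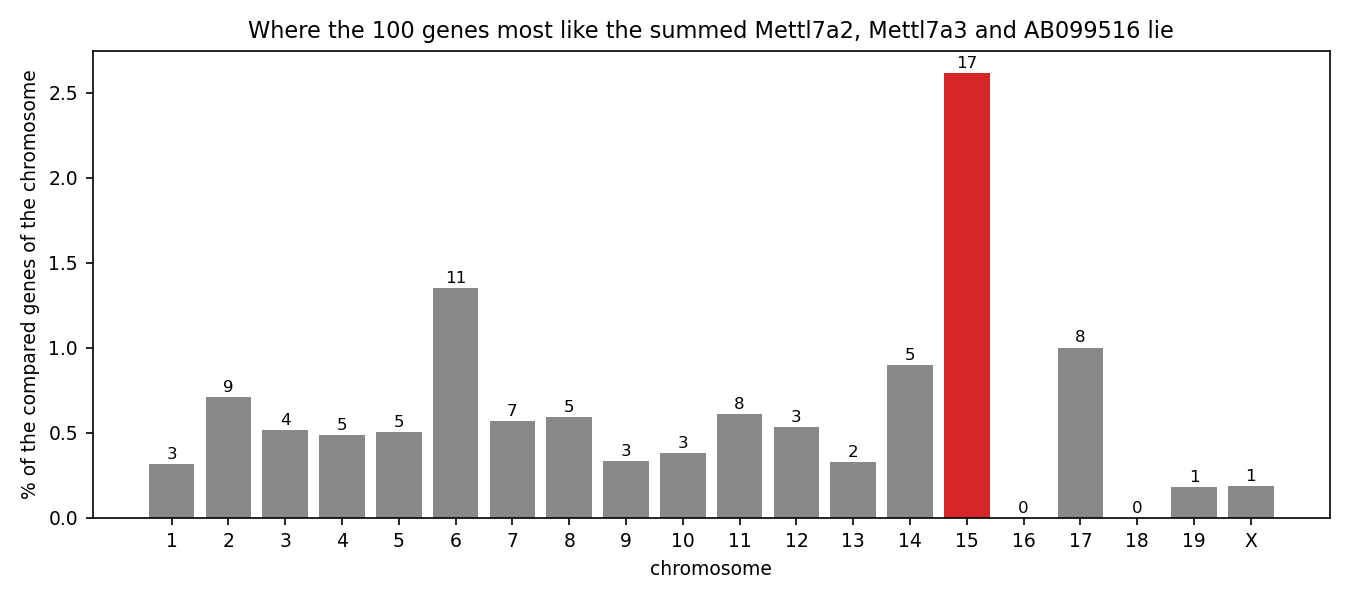
Share of the compared genes of each chromosome, in percent, that were among the 100 genes most like the summed Mettl7a2, Mettl7a3 and AB099516 over the 12 libraries, with the number of genes above each bar. Chromosome 15 (red) stands highest at 2.62% with 17 genes.

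Related genes elsewhere in the genome did not share the pattern of the near-zero members. Mettl7b, the relative on chromosome 10, had 37.9 ± 15.9 CPM in Wt, 39.3 ± 22.7 in AkCh, 38.7 ± 18.3 in AhCk and 53.3 ± 12.4 in AkCk (SD, n = 3 each), with overlap between all groups and no call by edgeR in any of the 5 comparisons. Of the 4 lists of related genes, which hold 82 genes and 81 in the table, 0 of 72 tested genes were called in AkCh against Wt by edgeR (2 at an unadjusted p under 0.05, 0 by DESeq2), and 0 also without AkCh20. In AhCk against Wt 2 of 71 were called, Mettl23 and Rab18, both lower, or 2.82% beside the 2.36% of all genes, and the count became 0 without Wt37, Wt55, AhCk110 or AhCk115 and 1 without AhCk38. The median log2 fold change of the lists was 0.09 in AkCh and -0.07 in AhCk, against 0.03 and 0.01 over all genes.

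In AkCk against Wt 8 of 72 were called, 6 higher and 2 lower, or 11.1% beside 13.7% of all genes, with a median of 0.10 against -0.01 over all genes. None of these 8 calls held with each of the 6 libraries left out. Scaling by library size only gave 5 calls, 2 higher and 3 lower, so the balance of directions depends on the scaling. Of 26 other Mettl genes, which hold RNA and protein methyltransferases, 22 were tested and 2 were called, Mettl6 and Mettl17, both lower. Mettl17, a mitochondrial ribosome assembly factor gene, fell by 0.70 on the log2 scale (SE 0.106, adjusted p = 0.00825 by edgeR), a call lost without Wt37 (adjusted p = 0.0511). Of 17 small-molecule methyltransferase genes, 16 were tested and 1 was called, Gamt of creatine synthesis, which rose by 0.50 ± 0.127 (adjusted p = 0.0400 by edgeR) and was lost with any of the 6 libraries left out, at adjusted p of up to 0.127, and with all 12 in 1 edgeR fit (adjusted p = 0.274). Of 10 hydrogen sulfide enzyme genes tested, 2 were called, both higher, the sulfide quinone oxidoreductase gene Sqrdl and Mpst. Of 25 lipid droplet protein genes tested, 3 were called, all higher, the triglyceride synthesis gene Dgat2, the lipase cofactor gene Abhd5 and Plin3. The median log2 fold change was -0.21 for the other Mettl genes, 0.16 for the small-molecule methyltransferases, 0.39 for the hydrogen sulfide enzymes and 0.21 for the lipid droplet proteins. Dgat2 rose by 0.84 ± 0.191 on the log2 scale (adjusted p = 0.0296 by edgeR), lost without Wt37, Wt55, AkCk24 or AkCk27 at adjusted p of up to 0.105 and in the edgeR fits to all 12 libraries without and with Xist (adjusted p = 0.264 and 0.537). The count over the lists was 23 without Wt30, 0 without Wt37, and 1 without Wt55, AkCk24 or AkCk27, so single libraries decide it.

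In AkCk against AkCh 0 of 72 list genes were called by edgeR (6 at an unadjusted p under 0.05, 2 by DESeq2; also 0 without AkCh20), with a median of 0.09 against -0.01 over all genes. In AkCk against AhCk 8 of 72 were called, 5 higher (Mettl15, Sqrdl, Hsd17b11, Abhd5 and Rab18) and 3 lower (Mettl14, Mettl17 and Mettl3), or 11.1% beside 19.1% of all genes, with a median of 0.15 against 0.00. Mettl3 and Mettl14 encode the core of the RNA adenosine methyltransferase complex. Rab18, a small GTPase gene of lipid droplets, rose by 0.58 ± 0.0729 on the log2 scale (adjusted p = 0.00347 by edgeR) and held with each of the 6 libraries left out. The count became 17 without AhCk38, 2 without AhCk110, 4 without AhCk115, 3 without AkCk24 and 5 without AkCk27.

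Markers of kidney and of other tissues were read in the same libraries, since liver and fat are rich in Mettl7a transcripts. All 12 kidney markers were present in every library, with summed levels of 2987 ± 611 CPM in Wt, 3023 ± 1030 in AkCh, 3153 ± 584 in AhCk and 3863 ± 766 in AkCk, led over all libraries by Lrp2, with Slc12a1 or Slc34a1 above it in 5 of them. AkCh20 was lowest, at 1847 CPM. The sum follows its abundant tubule genes, and Six2, a gene of nephron progenitors, had 67.2, 83.9 and 105 CPM in Wt30, Wt37 and Wt55 against 27.9, 13.2 and 58.4 CPM in AkCk24, AkCk27 and AkCk29, without overlap. Pax2 had 113, 137 and 158 CPM in the same Wt libraries and 80.3, 58.5 and 106 CPM in the same AkCk libraries, lower in each. The correlation of the kidney sum with the sum of Mettl7a2, Mettl7a3 and AB099516 was 0.474 in log2 CPM (n = 12). The part of a shift in kidney cell types in the Mettl7a levels was not tested. Of the 12, 2 were called in AkCk against Wt, both higher, and 3 in AkCk against AhCk, 1 higher and 2 lower, where 13.7% and 19.1% of all genes tested were called by edgeR.

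The 7 adipocyte markers summed to 284 ± 24.8 CPM in Wt, 339 ± 165 in AkCh, 222 ± 12.9 in AhCk and 265 ± 11.9 in AkCk. Of them, Fabp4 made up nearly the whole sum, at 211 CPM in AhCk110 to 529 CPM in AkCh20, and is also a gene of endothelial cells and macrophages. Lep was at 0 in all 12 libraries, Cfd was at 0 in each but AkCk29, and Adipoq was at 0 in each but Wt30 and AkCk29. The low markers did not move alike: Cidec was highest in AkCk24 and AkCk27, at 0.313 and 0.357 CPM, where Retn was at 0, and Plin1 was highest in AkCh31, at 0.145 CPM. The correlation of the adipocyte sum with the sum of Mettl7a2, Mettl7a3 and AB099516 was -0.329 in log2 CPM (n = 12). The part of fat RNA in the Mettl7a levels was not tested.

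The 8 hepatocyte markers were low but higher in most mutant libraries, with summed levels of 9.04, 8.42 and 12.6 CPM in Wt30, Wt37 and Wt55, and 53.2, 37.5 and 13.3 CPM in AkCh20, AkCh31 and AkCh33. They summed to 21.4, 12.9 and 42.3 CPM in AhCk38, AhCk110 and AhCk115, and to 30.5, 36.3 and 15.9 CPM in AkCk24, AkCk27 and AkCk29. Every mutant library lay above Wt, by little in AhCk110, AkCh33 and AkCk29. Alb was the most abundant marker over all libraries, with at most 24.6 CPM, and no marker was at 0. It did not lead in Wt, where Fga, Serpina1b and Fgb led in Wt30, Wt37 and Wt55. Nor did it lead in AkCh33, where Fga led, or in AhCk110 and AkCk29, where Ttr led. In AkCh33 Alb had 0.369 CPM, below the Wt libraries at 0.669 to 1.09 CPM. AkCh20 had the highest hepatocyte sum and the lowest Mettl7a2 count of the mutants, and the correlation of the hepatocyte sum with the sum of Mettl7a2, Mettl7a3 and AB099516 was 0.595 in log2 CPM (n = 12). Of the 8 markers, 2 were called in AkCk against Wt and 1 in AkCk against AhCk, all higher, beside the same 13.7% and 19.1% of all genes. The part of liver RNA in the Mettl7a levels was not tested.

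The 6 adrenal cortex markers summed to 4.36 to 12.5 CPM, led by Star in all libraries but AkCh20 and AkCk27, where Mc2r was higher, with Cyp11b1 at 0 in 10 libraries, and skeletal muscle markers to 3.40 to 13.9 CPM, with means of 5.30 ± 2.79 in Wt and 10.8 ± 4.22 in AkCk. Tnnt3 had the highest level of the muscle markers in Wt30, Wt55 and the AkCh libraries, while Myh3, Acta1 and Mylpf had it in AkCk24, AkCk27 and AkCk29. The correlations with the sum of the low members were 0.0716 for adrenal cortex and 0.398 for skeletal muscle (n = 12). AkCk29 had the highest Cyp11a1, Cyp11b1, Cyp21a1 and Hsd3b1 of all libraries, at 1.87, 0.742, 0.879 and 1.10 CPM. Of the adrenal cortex markers, 0 of 3 tested were called by edgeR in AkCk against Wt and 1 of 3, higher, in AkCk against AhCk. Of the muscle markers, 1 of 6 was called in each of these comparisons, higher, beside 13.7% and 19.1% of all genes. The part of these tissues in the result was not tested either.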

How the data were processed

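RNA of whole kidneys was read as paired ends of 75 bases. The authors used mm10 for alignment and dropped reads placed more than once. The gene values deposited by the authors are expected counts, which carry fractions, and normalized log2 values, which served only as an alternative for the member levels. Expected counts were rounded. In R 4.3.3, edgeR 4.0.16 with TMM scaling and filterByExpr (minimum count 10, minimum total count 15) compared the 6 libraries of each of 5 comparisons by the quasi-likelihood test, with Benjamini-Hochberg adjustment and a threshold of 0.05, after a test on simulated data. DESeq2 1.42.0 was an alternative, as were RLE factors, library size only, no filter, all 12 libraries in 1 fit, Xist as a covariate, a 1 Mb window and leaving out each library. Correlations used log2(CPM + 0.5). Positions came from RefSeq GRCm38.p6, matched by Entrez identifier for 33006 of 36186 entries, and transcripts from GENCODE M21. Python 3.11.15, Biopython 1.88, scipy 1.17.1 and matplotlib 3.10.9 were used.

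Named were the members, Mettl7b, Higd1c, Xist, Hoxa9 to Hoxa11, the Hoxc genes, the 5 neighbours with counts on each side, up to 20 window genes by smallest adjusted p, and the 5 genes most like Mettl7a1 and the 5 most like the other members. The 4 gene lists were other Mettl genes, small-molecule methyltransferases, hydrogen sulfide enzymes and lipid droplet proteins, and the 5 marker lists were kidney, adipocyte, hepatocyte, adrenal cortex and skeletal muscle. The members and lists were chosen with earlier results of these data known.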

Additional observations from a re-analysis of the deposited data

How the results depend on the processing

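Of 245 alternative values for the levels of the members, 243 lay within 1 SD between libraries (log2) of the value given, and the sign changed in none of the 25 ratios. The exceptions were without Wt37 in AhCk against Wt, at 4.34 for Mettl7a3 (4.34 to 5.29 over libraries left out) and 7.97 for AB099516 (7.02 to 7.97). Counts of called genes moved by more than 1.5 times in 26 of 65 alternatives for the window and 23 of 55 for the lists, and the cause was not tested.

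For the window, DESeq2 gave 1 gene in AkCh against Wt, 20 in AhCk against Wt, 34 in AkCk against Wt and 6 in AkCk against AkCh, against 0, 6, 20 and 0 by edgeR. All 12 libraries in 1 fit gave 2 in AhCk against Wt, 7 in AkCk against Wt, 5 in AkCk against AkCh and 13 in AkCk against AhCk. With Xist as a covariate the first 3 of these counts were also 2, 7 and 5. A window of 1 Mb gave 3 in AhCk against Wt and 12 in AkCk against Wt, with fewer genes tested. Leaving out 1 library gave 1 to 6 in AhCk against Wt, 5 to 25 in AkCk against Wt, 0 to 4 in AkCk against AkCh and 5 to 31 in AkCk against AhCk.

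For the lists, DESeq2 gave 4 in AhCk against Wt, 14 in AkCk against Wt, 2 in AkCk against AkCh and 16 in AkCk against AhCk, against 2, 8, 0 and 8 by edgeR. All 12 libraries in 1 fit gave 0, 4 and 2 in the first 3 of these, and library size only gave 5 in AkCk against Wt, 2 higher and 3 lower. Leaving out 1 library gave 0 to 2 in AhCk against Wt, 0 to 23 in AkCk against Wt and 2 to 17 in AkCk against AhCk. At 1 to 3 counts in Wt, the depth leaves the ratios of the low members uncertain by several times.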
